A study of Mus musculus with 33 samples.

Results

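The 8 genes described here, Fabp1, Fabp4, Plin2, Abcg1, Abca1, Plet1, Krt79 and Car4, were taken as a list of lipid handling genes and other genes linked to alveolar macrophages, out of 32285 genes in each count table. They were followed over macrophage classes, tissues and biotin sorts, sample by sample. Fabp1 and Fabp4 encode cytosolic proteins that bind fatty acids, Plin2 encodes a coat protein of lipid droplets, and Abcg1 and Abca1 encode membrane transporters that pass cholesterol and phospholipid to lipoprotein particles. Plet1 encodes a lipid-anchored surface protein, Krt79 a keratin, and Car4 a membrane-anchored carbonic anhydrase. The last 3 genes are not lipid enzymes or carriers.

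Alveolar macrophages live in the air spaces of the lung, where they take up and break down surfactant, the lipid film that keeps the alveoli open. Their lipid programme depends on the growth factor GM-CSF and on the nuclear receptor PPAR-gamma, while liver X receptors, which sense oxysterols, switch on Abca1 and Abcg1 in macrophages. Kupffer cells of the liver, microglia and border macrophages of the brain, and macrophages of the bone marrow clear other material, chiefly dying cells, red cells and debris.

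Single-cell RNA-seq was made of mouse tissues in which SAMENT, a labelling method that tags the neighbours of injected tumour cells with biotin, had been run overnight before the cells were sorted by biotin. The 8 intracardiac groups were bone, brain, liver and lung after an intracardiac injection, each as a biotin positive and a biotin negative sort with 4 samples. A further experiment on bone, after an injection named only IIA, pooled 12 samples marked by hashtags: 6 injections numbered 1 to 6, each sorted into a biotin positive and a biotin negative sample. All groups thus carried an injection and the substrate labelling, and the negative sort is the untagged part of the same tissue, not an uninjected animal. The labels used here give no strain, age, allele, injected line or count of animals. Nothing in them says that the samples of a group came from separate animals, so p-values measure the spread between these samples, which may be technical.

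After filtering, 55366 of 57065 intracardiac cell barcodes were kept, with 94 to 3505 cells and 497940 to 44874529 UMIs (unique molecular identifiers, counted transcript molecules) per sample. The median UMI count per cell was 2606 to 11313.5. In the IIA experiment 22362 cells were kept, 249 to 3480 per hashtagged sample. Samples with the same replicate number shared 0 barcodes over 112 pairs, and the other pairs at most 7, or 0.909% of the smaller sample. Cell classes were named from clusters by marker genes, so a name stands for resemblance only. The 8 genes were left out of clustering and naming, but levels between classes come from the same cells as the clusters and are given as a description with no test. Levels are counts per 1e6 UMIs (CPM), summed over the cells of a class in 1 sample with at least 10 such cells. Because 1 UMI counts 1 molecule at its 3′ end, these levels are not divided by gene length, and levels are compared between classes for the same gene only.

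Fabp1 (chromosome 6, 71199879 to 71205034), Fabp4 (chromosome 3, 10204342 to 10208616), Plin2 (chromosome 4, 86626910 to 86670217), Abcg1 (chromosome 17, 31057694 to 31117984), Abca1 (chromosome 4, 53030789 to 53159988), Plet1 (chromosome 9, 50494525 to 50505639), Krt79 (chromosome 15, 101929332 to 101940324) and Car4 (chromosome 11, 84957754 to 84966054) are protein-coding genes, with coordinates from RefSeq on GRCm38.p6. Promoter sequence was matched for 6 of the 8. The 4 shown are the genes with the largest fitted differences between the lung sorts, which rose together there. Each window starts 250 bases before the RefSeq start of the gene and ends before the first start that RefSeq or GENCODE gives, which leaves 250 bases, or 198 for Fabp1. It is printed 5′ to 3′ on the strand of the gene from RefSeq, GRCm38.p6. Capitals mark matches on either strand to AGGTCA, the half-site read by nuclear receptors such as PPAR-gamma, to TTGCNNAA, a C/EBP motif, and to TATAAA, the TATA box.
Fabp1 (chr6:71199629-71199826, plus strand): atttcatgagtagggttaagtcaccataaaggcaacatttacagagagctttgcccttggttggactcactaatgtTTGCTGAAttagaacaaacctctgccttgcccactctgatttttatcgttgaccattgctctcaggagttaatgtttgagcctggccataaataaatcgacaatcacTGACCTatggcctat
Plet1 (chr9:50494275-50494524, plus strand): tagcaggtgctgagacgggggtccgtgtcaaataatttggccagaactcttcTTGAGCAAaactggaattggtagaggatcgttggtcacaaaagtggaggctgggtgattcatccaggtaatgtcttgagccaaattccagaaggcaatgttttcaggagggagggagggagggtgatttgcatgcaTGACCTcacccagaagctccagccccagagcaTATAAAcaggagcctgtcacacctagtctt
Krt79 (chr15:101940325-101940574, minus strand): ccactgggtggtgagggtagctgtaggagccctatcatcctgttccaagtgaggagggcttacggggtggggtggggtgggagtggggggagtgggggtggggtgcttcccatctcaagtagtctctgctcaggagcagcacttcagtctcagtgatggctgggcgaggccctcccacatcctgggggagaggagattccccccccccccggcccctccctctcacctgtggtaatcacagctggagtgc
Car4 (chr11:84957504-84957753, plus strand): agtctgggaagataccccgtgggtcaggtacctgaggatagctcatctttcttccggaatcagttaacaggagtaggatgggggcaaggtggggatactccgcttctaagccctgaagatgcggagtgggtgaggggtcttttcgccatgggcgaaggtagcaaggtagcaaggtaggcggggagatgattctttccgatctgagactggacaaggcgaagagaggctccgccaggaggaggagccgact

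The Fabp1 window held 1 AGGTCA match, read there as TGACCT on the printed strand, and 1 TTGCNNAA match. The Plet1 window held 1 match to each of the 3 motifs, and the Krt79 and Car4 windows held none. Among 32851 promoters cut to 250 bases, 14.0% held AGGTCA, 9.56% TTGCNNAA and 12.4% TATAAA; cut to 198 bases, the shares were 11.3%, 8.03% and 9.08%. A match of letters is a description of the window and does not show binding.

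The alveolar macrophage class joined clusters 25 (3822 cells) and 24 (144 cells), both led by Ear1, Atp6v0d2 and Lpl. It matched its label: in biotin positive lung, 15 of its 15 marker genes were detected in each of the 4 samples, at 25205 to 34427 CPM together, and Siglecf, a defining surface lectin of these cells, lay at 127 to 155 CPM. Chil3, a chitinase-like protein gene that stands in 3 of the marker lists, made up 60.3% to 74.4% of that sum. The other 14 genes gave 8233 to 10665 CPM, all detected in each sample, against 124 to 2970 CPM over the 4 other phagocyte classes of positive lung. Of 3966 cells in the class, 3885 came from biotin positive lung, 31 from biotin negative lung and 50 from outside the lung. They made up 45.2%, 81.7%, 37.6% and 14.7% of kept cells in positive lung samples 1 to 4, and at most 0.873% in a negative one. The sort itself sets these shares. Only 2 samples other than the 4 of positive lung held at least 10 of them, negative lung sample 2 with 22 cells and positive liver sample 1 with 16.

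Among the fatty acid binding proteins, Fabp1 was, among the phagocytes, highest in this class. Its level in the alveolar macrophage class of positive lung samples 1 to 4 was 409, 228, 701 and 578 CPM, with a mean of 479 ± 206 (SD, n = 4). The next phagocyte class in the biotin positive sort, Kupffer-like cells of the liver, had 8.70 ± 6.18 CPM (SD, n = 3), and no sample range of another phagocyte class overlapped that of the alveolar macrophage class. In 6 of 18 phagocyte classes of the positive sort, each 1 class in 1 tissue, the mean was 0. The 22 cells from negative lung sample 2 had 186 CPM and the 16 cells from positive liver sample 1 had 260 CPM, so the few cells of the class outside positive lung carried Fabp1 as well. Outside the phagocytes, endothelial-like cells of the liver had 28.8, 20.8 and 7.53 CPM in the positive and 0, 6.27, 33.0 and 0 CPM in the negative sort.

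Fabp4, the adipocyte and macrophage fatty acid binding protein, was high in several kinds of cells. In the alveolar macrophage class it lay at 578, 377, 828 and 471 CPM, a mean of 564 ± 194 (SD, n = 4), at rank 3 of the 18. Ahead of it stood nonclassical monocytes of positive liver, at 237 and 1135 CPM in the samples with enough cells (56 and 12 cells), and a cluster of positive bone led by Cd5l and Vcam1, at 433 and 839 CPM. These 3 classes overlapped and could not be ranked beyond their spread. Nonclassical monocytes, the patrolling monocytes of the vessel wall, had 129 to 488 CPM in negative lung and 125 to 428 CPM in positive lung, so the sorts overlapped. Outside the phagocytes, endothelial-like cells of the liver had far more, at 4194, 7763, 1435 and 1784 CPM in the negative sort and 3409, 8420 and 2212 CPM in the positive sort.

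The Cd5l and Vcam1 cells of bone shared cluster 26 with the Kupffer-like cells of the liver, yet differed from them in Fabp4. Kupffer-like cells of positive liver had 0, 31.9 and 0 CPM of Fabp4, whereas the bone cells had 433 and 839, with no overlap. Clec4f, the defining Kupffer cell lectin, was at 2402 to 4393 CPM in the liver cells and at 5.48 and 122 CPM in the bone cells, so the bone cells are called here by their leading genes. Classical monocytes, border macrophages and microglia held little Fabp4, with means of 2.74 to 11.8 CPM in the positive sort.

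Plin2, whose protein coats lipid droplets, was found in every phagocyte class. The alveolar macrophage class had 1155, 1076, 1561 and 1312 CPM, a mean of 1276 ± 214 (SD, n = 4), the first of the 18 in order. An unnamed cluster led by Pf4 and Ppbp came next, with 1051 ± 471 CPM in positive liver (n = 3) and 903 ± 274 CPM in positive lung (n = 4), and its ranges overlapped those of the alveolar macrophage class. Another unnamed cluster, not among the 18 and led by Cxcl3, Ccl3 and the lipid droplet gene Hilpda, reached 1235, 1341 and 1971 CPM in negative lung and 1110, 997 and 1551 CPM in positive lung. Even classical monocytes had 179 to 489 CPM over all tissues and sorts. Microglia had the least of the 18, at 92.4 ± 42.9 CPM (SD, n = 4).

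Abcg1 and Abca1, the paired sterol exporters, ordered the macrophage classes in different ways. Abcg1 was highest in the alveolar macrophage class, at 1109, 1484, 1239 and 1339 CPM, a mean of 1293 ± 159 (SD, n = 4) that no other phagocyte class overlapped. The Cd5l and Vcam1 cells of bone had 449 and 245 CPM, Kupffer-like cells of positive liver 228, 270 and 190 CPM, and microglia 60.9, 133, 125 and 141 CPM. Border macrophages of the brain, at 96.3, 62.7, 41.5 and 84.4 CPM, lay near the low end of the order. From the second class down, each class overlapped its neighbour in the order of Abcg1 levels.

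Abca1 in the alveolar macrophage class was 85.1, 144, 54.7 and 77.4 CPM, a mean of 90.2 ± 37.9 (SD, n = 4), at rank 12 of the 18. The Cd5l and Vcam1 cells of bone had 526 and 840 CPM, border macrophages 679, 411, 353 and 580 CPM, Kupffer-like cells of positive liver 295, 566 and 532 CPM, and microglia 313, 416, 307.9 and 315 CPM. All samples of these 4 classes lay above all 4 alveolar macrophage samples. Classical monocytes held the least Abca1, with a mean of 8.09 CPM in positive lung, and nonclassical monocytes of positive lung had 39.8 to 55.8 CPM. Over 329 sums of a class in 1 sample, log2(CPM + 1) of Abca1 and Abcg1 had a Pearson r of 0.59, a description in which the sums share libraries and depth.

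**Figure D1:**
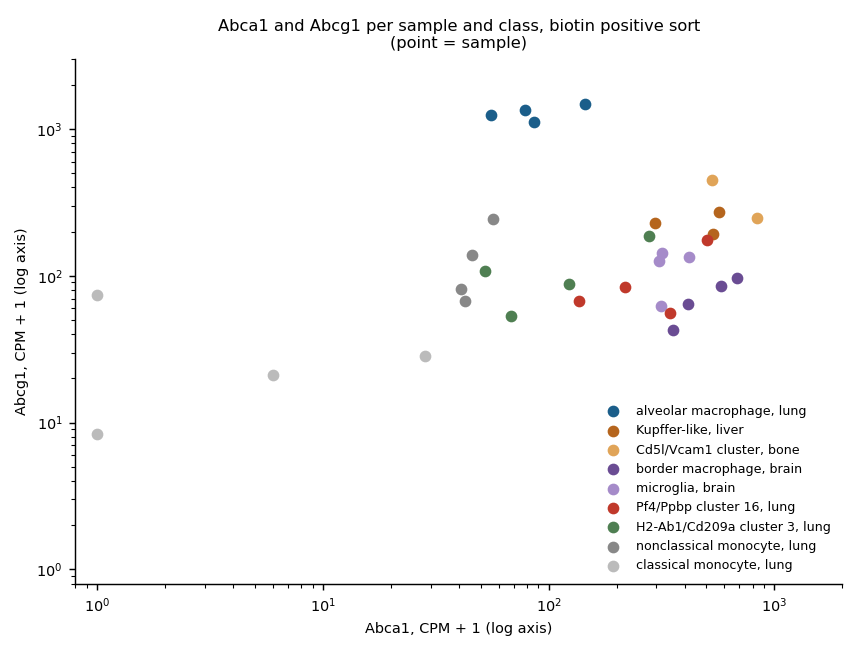
Level of Abcg1 against Abca1 in phagocyte classes of the biotin positive sort, both in CPM + 1 on log axes, with 1 point for a class in 1 sample. The 4 alveolar macrophage samples stand alone at the top, at 1109 to 1484 CPM of Abcg1, while bone, liver and brain macrophages lie to the right of them in Abca1.

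Plet1, Krt79 and Car4 were nearly confined to the alveolar macrophage class among the phagocytes measured. Plet1 had 1669, 1311, 953 and 1004 CPM there, a mean of 1234 ± 330 (SD, n = 4). Krt79 had 471, 641, 970 and 592 CPM, a mean of 668 ± 213, and Car4 had 234, 207, 218 and 123 CPM, a mean of 196 ± 49.5. For each of the 3 genes no other phagocyte class overlapped these ranges. The next means among the 18 phagocyte classes in order were 68.4 CPM for Plet1, 30.7 CPM for Krt79 and 5.83 CPM for Car4. The unnamed cluster led by Cxcl3, Ccl3 and Hilpda, which is not among the 18, had more Car4, at 57.5, 24.9 and 29.9 CPM in positive lung samples 1, 3 and 4 (10, 1 and 8 counts) and 0, 18.6 and 48.9 CPM in negative lung samples 1, 2 and 4.

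The next phagocyte class for Plet1 was an unnamed cluster led by H2-Ab1, H2-Eb1 and Cd209a, genes of antigen presentation, and its level there lay in lung cells. These had 84.5, 30.7, 27.5 and 131 CPM in positive lung and 50.4, 29.2, 20.3 and 49 CPM in negative lung, whereas cells of the same cluster in bone, brain and liver had 0 to 21.4 CPM in either sort. Outside the phagocytes, an unnamed cluster led by Clu, Cpa3 and Gata2 had 233 and 57.6 CPM of Plet1 in positive liver samples 1 and 3, 83.0 CPM in positive lung sample 1 and 38.7 CPM in positive brain sample 4, against 0 to 17.6 CPM in bone. Car4 too was found outside the phagocytes. An unnamed cluster led by Ly6c1, Epas1, Ramp2 and Cldn5, which are endothelial genes, had 396 and 282 CPM in positive lung and 203 and 95.9 CPM in positive brain. Its Fabp4 level was 106 and 3020 CPM in positive lung samples 1 and 2 (181 and 19 cells) and 0 and 51.1 CPM in positive brain, so that the high value was that of 1 sample.

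**Figure D2:**
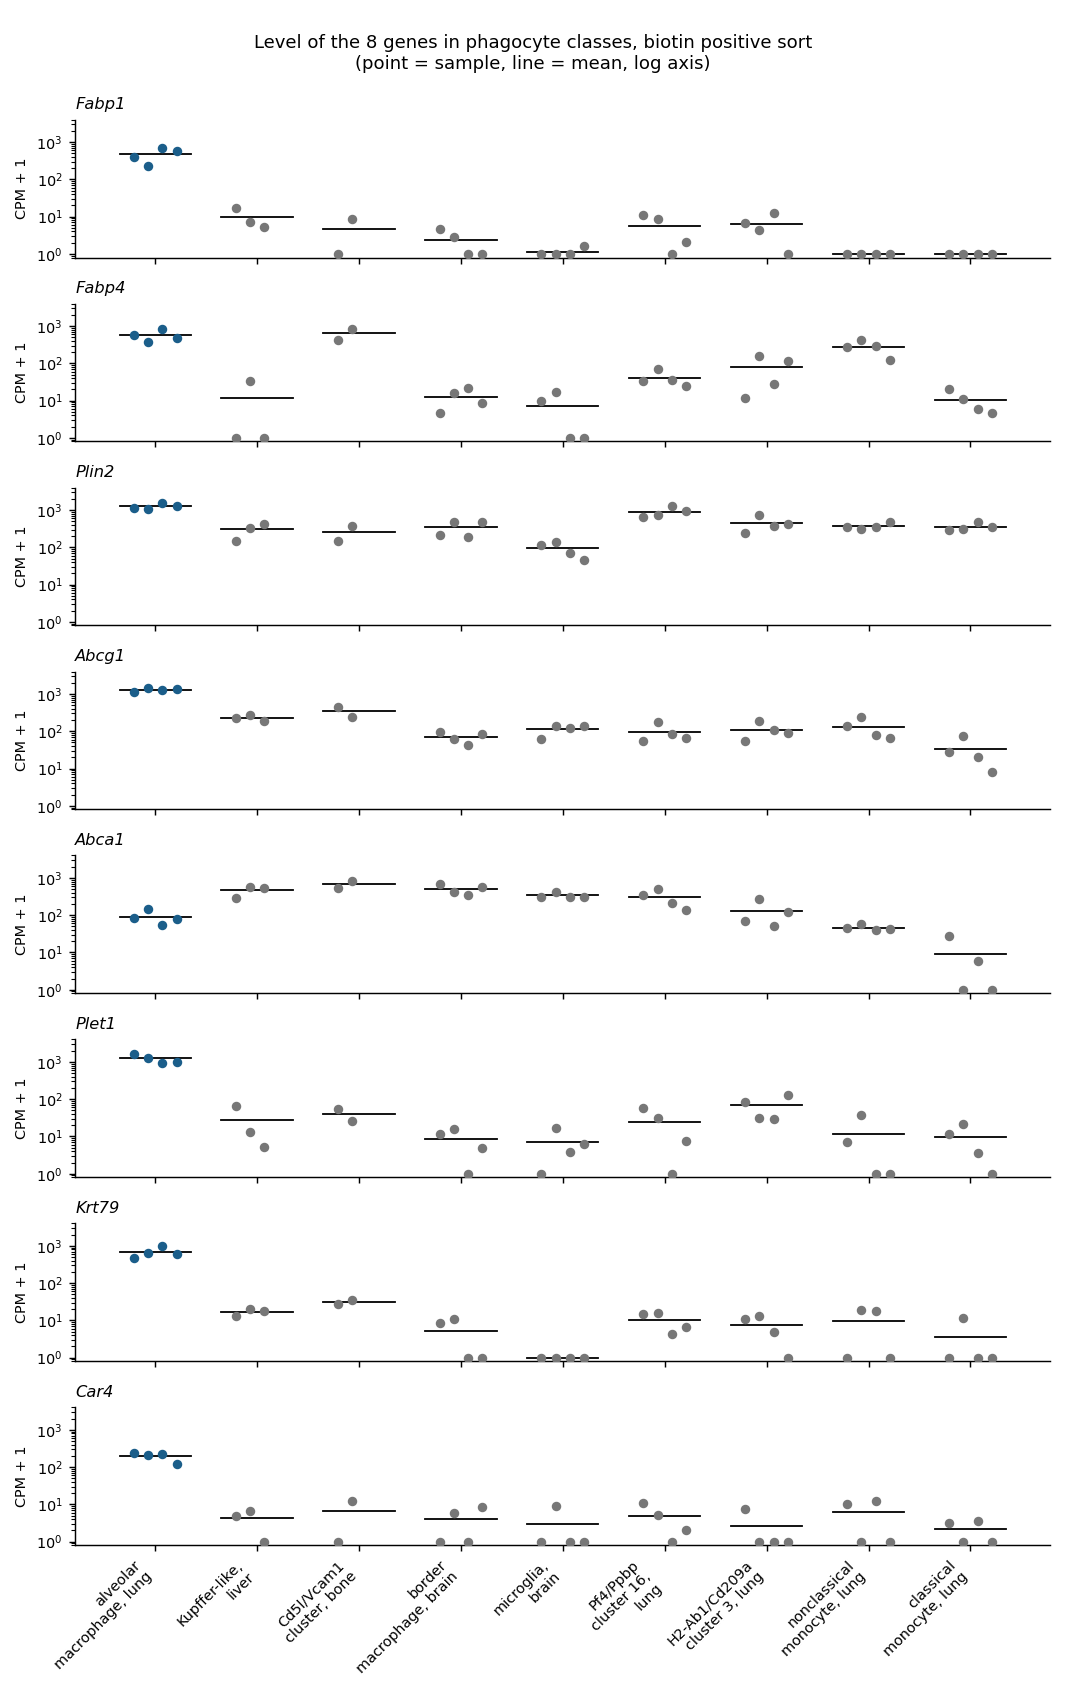
Level of each gene in 9 phagocyte classes of the biotin positive sort, in CPM + 1 on a log axis, with 1 point per sample and a line at the mean. The alveolar macrophage class stands clear of the others in the Fabp1, Abcg1, Plet1, Krt79 and Car4 panels, and in the Abca1 panel, at a mean of 90.2 CPM, it lies under the macrophages of liver, bone and brain.

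Within the class, the genes were found in most cells or in a minority. In positive lung, the mean share of cells with at least 1 UMI over 4 samples was 99.2% for Plin2, 98.5% for Abcg1, 97.2% for Plet1, 84.6% for Krt79, 68.4% for Fabp1, 64.4% for Fabp4, 50.8% for Car4 and 32.1% for Abca1. Neutrophils of the same samples, which should lack most of these genes, gave 0.525% for Fabp1, 0.527% for Car4, 1.33% for Fabp4, 1.56% for Plet1 and 1.97% for Krt79. For these 5 genes the share in the alveolar macrophage class lay far above the neutrophil share. Neutrophils gave 64.3% for Plin2, 17.5% for Abca1 and 15.1% for Abcg1. The median UMI count was 6304 to 9306 per alveolar macrophage and 3065 to 3964.5 per neutrophil, so cells were also thinned to 2000 UMIs, which left out 86 of 3885 and 119 of 1384 cells. Thinned, 89.5% of alveolar macrophages had an Abcg1 UMI, 88.4% Plin2, 85.8% Plet1, 63.4% Krt79, 44.6% Fabp4, 39.3% Fabp1, 25.9% Car4 and 13.7% Abca1. The thinned Abca1 share in neutrophils was 10.1%, close to that in alveolar macrophages.

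The cells of cluster 24 had more UMIs than those of cluster 25 and a lower CPM of each of the 8 genes, in each of the 3 samples that held them. In positive lung sample 1, the median UMI count was 12731 against 8178, and Abcg1 was at 704 against 1142 CPM. Fabp1 was at 221 against 425 CPM there, 111 against 231 in sample 2 and 310.6 against 735 in sample 3. Cluster 24 held no cell of sample 4. No doublets were removed, and the part that doublets may have in cluster 24 was not tested.

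A low level of Krt79 and Plet1 was counted in granulocytes (neutrophils and their precursors) of all tissues, and it went with the replicate number. In the 8 samples with replicate number 2, where 1985 alveolar macrophages were found, granulocytes of the 4 tissues had 5.79 to 13.4 CPM of Krt79 and 5.66 to 11.0 CPM of Plet1. With replicate number 4, where 101 alveolar macrophages were found, they had 0 to 0.0834 CPM of Krt79 and 0.250 to 0.560 CPM of Plet1. Replicate numbers 1 and 3, with 1417 and 463 alveolar macrophages, gave 0.287 to 1.97 and 1.54 to 10.3 CPM of Krt79. Plin2 in granulocytes was neither low nor ordered this way, at 172 to 538 CPM with replicate number 4 and 92.0 to 275 CPM with number 2. Levels of Krt79 and Plet1 of about this size in other classes are not read as expression.

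**Figure D3:**
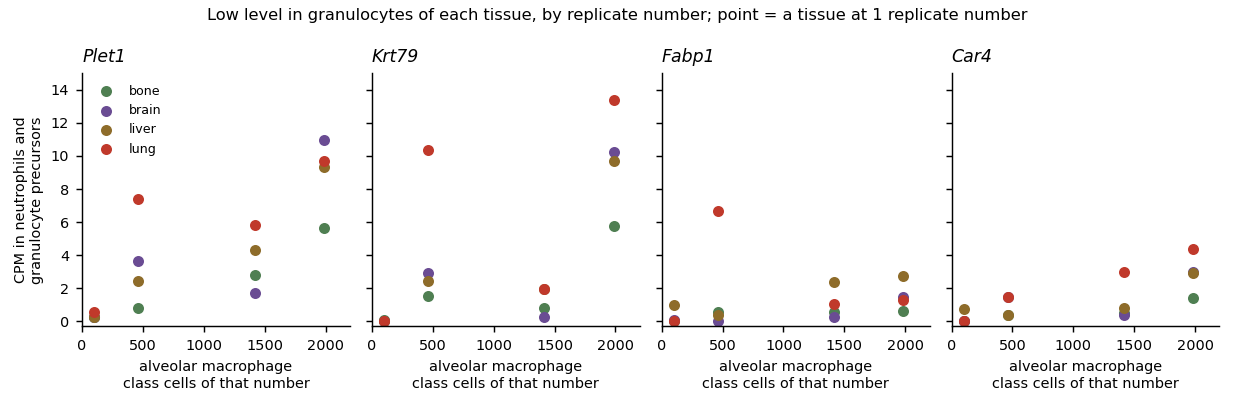
Level of 4 genes in granulocytes of each tissue, in CPM, against the number of alveolar macrophage class cells over the 8 samples of the same replicate number; 1 point is a tissue at 1 replicate number. Replicate number 4, at 101 cells, lies at or near 0 in every panel, and replicate number 2, at 1985 cells, reaches 13.4 CPM of Krt79.

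The main comparison of the study is the biotin positive against the biotin negative sort. Over all kept cells of the lung, 7 of the 8 genes were higher in the positive sort. The test was edgeR's quasi-likelihood test on UMI counts summed per sample, with Benjamini-Hochberg adjustment over all 12331 genes tested, and a call at an adjusted p under 0.05. The background was 18.3% of tested genes called and 11.5% called higher. Every positive sample lay above every negative one for the same 7 genes, and for 17.3% of genes with a mean of at least 10 CPM. Alveolar macrophages were 14.7% to 81.7% of the cells in these positive samples, and fewer cells of a class and less RNA per cell cannot be told apart in a sum over all cells.

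Fabp1 stood at 210, 183, 310 and 117 CPM in the positive lung samples against 2.07, 4.42, 0.939 and 0 in the negative ones. The log2 difference was 6.50 ± 0.96 (SE; edgeR adjusted p = 0.0037). Fabp4 stood at 310.6, 325, 377 and 110 CPM against 10.6, 16.4, 27.3 and 9.36, a log2 difference of 3.91 ± 0.46 (SE; edgeR adjusted p = 0.0021). Positive sample 4, with the smallest share of alveolar macrophages, was the lowest positive sample for both genes. Positive sample 3, with a share of 37.6%, was the highest for both, above sample 2 with 81.7%. The part of the share in these levels was not tested. Plin2 rose from 207, 291, 269 and 421 CPM in the negative samples to 791, 993, 931 and 770 in the positive ones (log2 difference 1.28 ± 0.27 SE, edgeR adjusted p = 0.015).

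Abcg1 rose from 61.2, 73.6, 38.0 and 36.3 CPM to 586, 1217, 566 and 313 CPM, a log2 difference of 3.36 ± 0.44 (SE; edgeR adjusted p = 0.0025). Abca1 did not pass the unpaired test: it stood at 126, 194, 53.4 and 69.0 CPM in the positive and 49.5, 59.5, 25.7 and 32.1 CPM in the negative samples (log2 difference 1.06 ± 0.42 SE, edgeR adjusted p = 0.11). Its groups overlapped, since positive sample 3 lay under negative sample 2.

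Plet1 rose from 18.8, 26.8, 2.71 and 2.50 CPM to 867, 1051, 423 and 213 CPM (log2 difference 5.27 ± 0.94 SE, edgeR adjusted p = 0.0074). Krt79 rose from 3.63, 18.9, 4.90 and 0.527 CPM to 242, 514, 430 and 121 CPM (5.19 ± 1.00 SE, adjusted p = 0.010 with edgeR). Car4 rose from 5.44, 6.54, 1.04 and 1.58 CPM to 140, 167, 96.6 and 31.1 CPM (4.55 ± 0.71 SE, adjusted p = 0.0045 with edgeR). In the negative sort, samples 1 and 2 held most of the Plet1 and Car4, and sample 2 most of the Krt79. Sample 2 was also the negative lung sample with the most alveolar macrophages, 22 of 2519 cells.

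Some other genes of lipid handling rose in lung as well. Of 49 further genes in 6 roles, chosen like the 8 with earlier results of these data known, 47 were tested, 18 rose and 0 fell, where 11.5% of all genes tested rose and 6.8% fell. Their median log2 difference was 0.62 against -0.04 over all genes tested. Without the alveolar macrophage class, 0 of the 47 were called in the unpaired edgeR test, as were 0 of 11969 genes, and their median was 0.55 against -0.0049 over all genes. By role, 5 of 6 genes of lysosomal lipid breakdown rose, among them Pla2g15 (2.68), a phospholipase of the lysosome, and Lipa (2.15), the acid lipase that splits cholesterol esters. In fatty acid binding, release and activation 4 of 7 rose, led by Lpl (5.33), the lipoprotein lipase, with the oxidation enzymes Cpt1a (1.12) and Acadl (0.79). Of the genes for esterification and lipid droplets 4 of 10 rose, led by Nceh1 (3.30), a cholesterol ester hydrolase, Plin3 (1.26) and Cidec (5.18), a droplet fusion protein. The receptors and regulators Pparg (4.51), Rxra (2.05) and Nr1h3 (2.39), the gene of liver X receptor alpha, were the 3 of 8 that rose in their role, and the scavenger receptors Cd36 (3.37) and Olr1 (3.56) were the 2 of 7 uptake receptors that rose. Values in parentheses are edgeR log2 differences of genes called at an adjusted p under 0.05. Among sterol efflux, apolipoprotein and sterol-regulated genes 0 of 9 were called, with a median of 0.18.

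Markers of other cells moved with the lung sort, and their part in the result was not tested. The summed level of 11 epithelial markers was 14.9 to 26.4 CPM in the negative and 120 to 489 CPM in the positive samples, with 8 to 11 and 10 to 11 of them detected, and 42.5% of it in the positive sort was Krt19. For 11 endothelial markers the ranges were 20.7 to 72.0 and 82.3 to 655 CPM (9 to 11 and 10 to 11 detected), and for 10 lung capillary markers 5.80 to 20.6 and 11.3 to 316 CPM (6 to 10 and 7 to 10 detected). The 10 adipocyte markers gave 15.02 to 54.3 and 69.5 to 225 CPM, of which 89.1% was Cidec in the positive sort, and the 12 hepatocyte markers 98.1 to 176 and 246 to 717 CPM, of which 99.7% was Trf. The 11 stromal markers gave 1.52 to 9.69 and 58.8 to 205 CPM (7 to 9 and 10 to 11 detected), of which 70.6% was Lepr in the positive sort, and the 10 megakaryocyte or platelet markers 50.1 to 219.9 and 213 to 2082 CPM (4 to 8 and 5 to 9 detected), of which 90.7% was Pf4. The 10 border macrophage markers gave 481 to 729 and 1039 to 3322 CPM (all detected), the 8 cycling markers 41.7 to 135 and 167 to 299.6 CPM (all detected), and the 8 eosinophil markers 15.8 to 45.9 and 414 to 1103 CPM (7 to 8 and 6 to 8 detected), of which 79.6% was Ear1, also an alveolar macrophage marker. Of all 29 lists, 9 lay higher in every positive than in every negative sample, the alveolar macrophage list among them, 1 lay lower and 19 overlapped. In 9 lists the median was lower in the positive than in the negative samples. The 12 T cell markers gave 316 to 1576 CPM in the negative and 58.4 to 313 CPM in the positive samples, all 12 detected in each and without overlap. The 10 NK cell markers gave 102 to 2350 and 24.4 to 121 CPM (10 and 9 to 10 detected), with overlap. The 11 B cell markers gave 361 to 4927 and 27.6 to 2522 CPM and the 11 neutrophil markers 24844 to 180496 and 11750 to 135553 CPM, all detected in each and with overlap. The other 5, the plasma cell, plasmacytoid dendritic cell, conventional dendritic cell, microglia and neural lists, had medians of 477, 310.8, 309.2, 464 and 48.3 CPM in the positive and 710.4, 533, 346, 503 and 62.4 CPM in the negative samples, and their ranges overlapped. Inside the alveolar macrophage class of positive lung, the stromal list was at 103 to 269, the megakaryocyte or platelet list at 11.2 to 20.6 and the cycling list at 188 to 537 CPM. There the surfactant gene Sftpc was at 1.68 to 26.9 CPM, the liver gene Alb at 0 to 2.03, the adipocyte gene Adipoq at 0 to 0.158, and the endothelial genes Kdr and Cdh5 at 0 to 1.71 and 0 to 2.53 CPM.

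**Figure D4:**
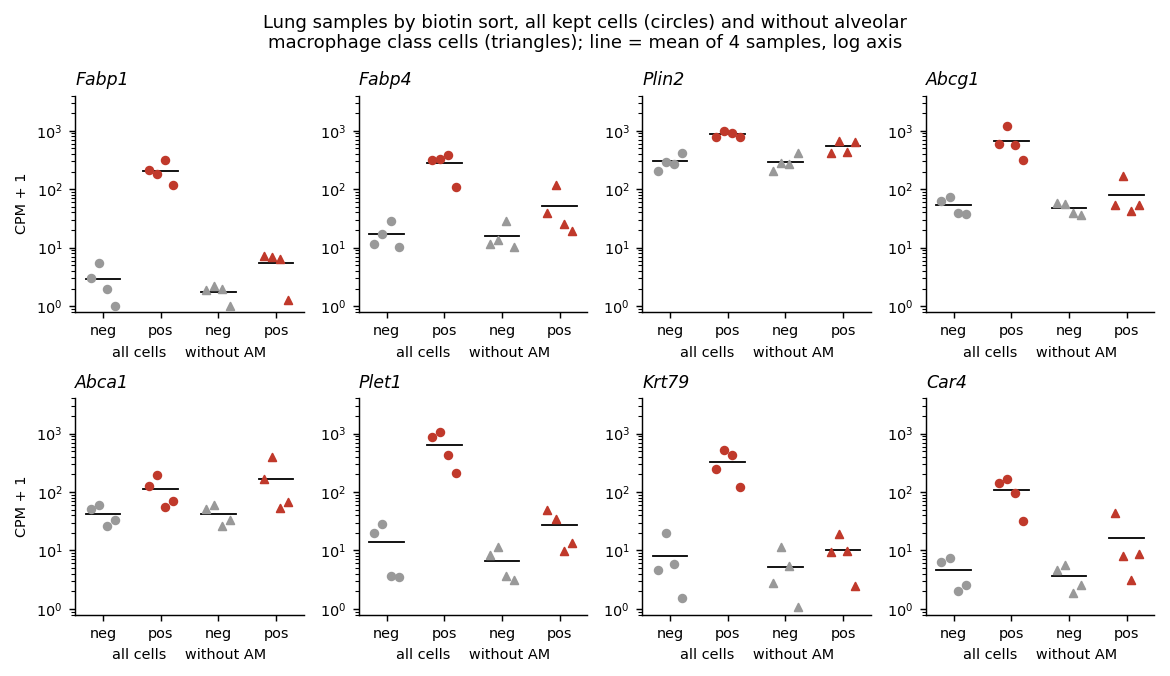
Level of each gene in the lung samples by biotin sort, in CPM + 1 on a log axis, over all kept cells (circles) and without the alveolar macrophage class (triangles); 1 point is a sample and a line is the mean of 4 samples. Over all cells the sorts stand apart for each gene other than Abca1; without the class they lie closer for 7 of the 8 genes, and Abca1 is the exception.

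Without the cells of the alveolar macrophage class, 0 of the 8 genes were called between the lung sorts by the unpaired edgeR test, where 0 of 11969 genes were called in all (0.0%) and 1847 had an unadjusted p under 0.05. DESeq2 called 3 of the 8, namely Abca1, Plet1 and Fabp4, and 5.92% of all genes. The groups overlapped for all 5 genes of the list above 10 CPM, where 1.85% of genes did not overlap with the positive sort higher. The edgeR log2 differences were 1.85 for Abca1 (adjusted p = 0.15), 1.70 for Fabp4 (0.16), 2.01 for Plet1 (0.16), 2.60 for Fabp1 (0.20), 2.33 for Car4 (0.21), 0.85 for Plin2 (0.20), 1.04 for Krt79 (0.70) and 0.68 for Abcg1 (0.48). All 8 estimates were above 0. Abca1 stood at 167, 389, 52.3 and 66.9 CPM in the positive against 49.7, 59.0, 25.7 and 32.1 CPM in the negative samples. Abcg1 stood at 52.9, 170, 42.1 and 52.6 against 56.0, 55.7, 38.0 and 35.8 CPM, and these groups overlapped. Plet1 stood at 48.4, 33.3, 8.89 and 12.2 against 7.48, 10.5, 2.71 and 2.18 CPM. Lung granulocytes of replicate numbers 1 to 4 had 5.82, 9.70, 7.39 and 0.560 CPM of Plet1. Fabp1 stood at 6.22, 6.00, 5.49 and 0.285 against 0.870, 1.21, 0.939 and 0 CPM, and at 1.08, 1.32, 6.65 and 0 CPM in these granulocytes. Car4 stood at 43.3, 7.03, 2.09 and 7.68 against 3.65, 4.58, 0.834 and 1.58 CPM, and at 3.02, 4.41, 1.48 and 0 CPM in these granulocytes.

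Whether the lung differed from the other tissues was tested directly, as the biotin difference of lung less the mean biotin difference of bone, brain and liver over 32 samples. By edgeR, 3 of the 8 genes passed, where 2.54% of 13963 tested genes did: Fabp1 at a log2 of 6.27 ± 1.06 (SE; adjusted p = 0.0012), Plin2 at 1.46 ± 0.40 (adjusted p = 0.044) and Abcg1 at 2.71 ± 0.72 (adjusted p = 0.039). The estimates for Krt79 at 4.85 (edgeR adjusted p = 0.070), Car4 at 3.61 (0.079), Plet1 at 4.00 (0.13) and Fabp4 at 2.80 (0.18) did not pass, and Abca1 was at -1.0 (0.69). With a block for the replicate number, which paired the sorts in bone, brain and liver and not in lung, 7 of the 8 passed, where 6.14% of genes did, with Krt79 at 5.90 (edgeR adjusted p = 1.49e-06), Plet1 at 4.72 (0.00010), Car4 at 3.67 (0.0012) and Fabp4 at 2.84 (0.026). Of the 3 called without the block, only Fabp1 kept its call with each of the 8 lung samples left out in turn. The Plin2 call was lost without positive sample 1 (1.54), 2 (1.45) or 3 (1.37) or negative sample 1 (1.30), 2 (1.505) or 3 (1.36), with edgeR adjusted p of 0.057 to 0.15. The Abcg1 call was lost without positive sample 1 (2.78), 2 (2.31) or 3 (2.72) or negative sample 1 (2.75), 3 (2.52) or 4 (2.55), with edgeR adjusted p of 0.054 to 0.17. Of the 49 further genes, Nceh1 (2.79), Olr1 (3.23), Cpt1a (1.42) and Pparg (3.29) passed this test and none passed in the other direction.

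**Figure D5:**
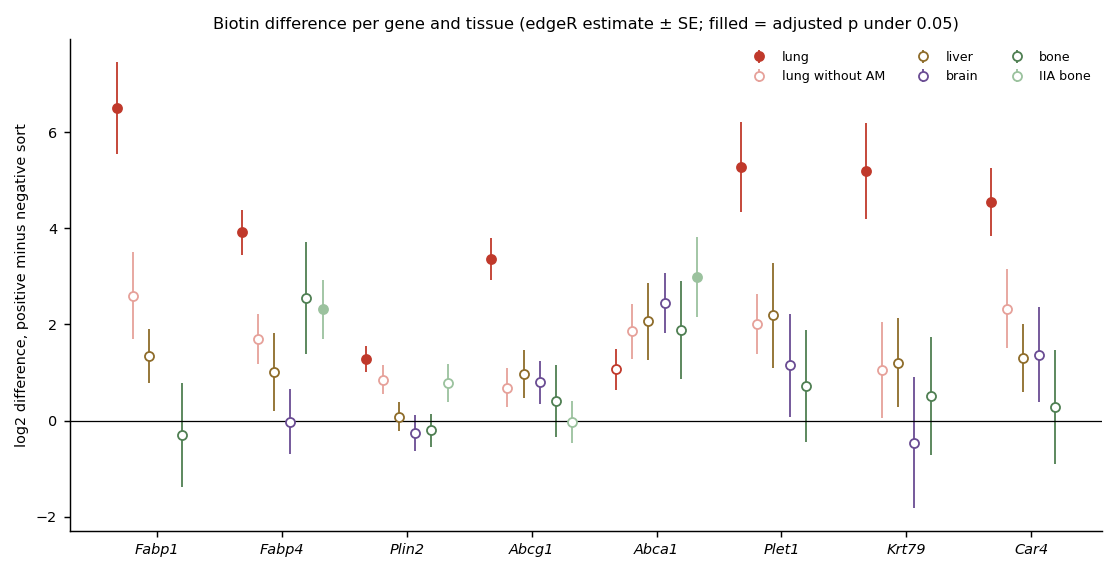
Difference between the biotin positive and negative sort for each gene, on the log2 scale with its SE, from edgeR in each tissue, in lung without the alveolar macrophage class and in IIA bone; filled points have an adjusted p under 0.05. Lung holds 7 filled points, from 1.28 for Plin2 to 6.50 for Fabp1, and IIA bone holds 2, Fabp4 and Abca1.

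In brain, Abca1 was the gene that differed. It stood at 103, 323, 125 and 171 CPM in the positive and 10.1, 54.3, 31.2 and 10.3 CPM in the negative samples, with no overlap. The log2 difference was 2.45 ± 0.62 (SE), which missed the threshold in the unpaired edgeR test (adjusted p = 0.068) and passed once replicate numbers entered as a block (2.70, edgeR adjusted p = 0.011, with 6.89% of genes called). In the unpaired test 0 of 7 tested genes of the list were called, where 3.06% of 11064 genes were, and DESeq2 called 1, and 11.1% of all genes. Of the 3 genes of the list with a mean of at least 10 CPM, 1 had all positive samples above all negative ones, against 13.7% of genes in all. Abcg1 in brain was at 28.8, 89.9, 66.3 and 71.0 against 23.4, 49.1, 35.6 and 11.9 CPM (log2 difference 0.79, edgeR adjusted p = 0.34).

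Brain macrophages moved with the brain sort. The 10 border macrophage markers summed to 879 to 9709 CPM in the positive and 455 to 797 CPM in the negative samples, all 10 detected in each, and the 12 microglia markers to 1054 to 6957 and 384 to 748 CPM, all 12 detected in each. Within border macrophages Abca1 was 679, 411, 353 and 580 CPM in the positive sort and 371 and 430 CPM in the 2 negative samples with enough cells (log2 difference 0.31 ± 0.33 SE, edgeR adjusted p = 0.998). These ranges overlapped. Of the 46 further lipid genes tested in brain, Acsl3 (1.69) and Pla2g15 (2.11) rose and 0 fell, where 2.88% of all genes tested rose.

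In liver and bone no gene of the list was called, and no gene at all was by the unpaired edgeR test (0.0%). There 1571 of 11854 genes in liver and 983 of 12533 in bone had an unadjusted p under 0.05. When same-numbered sorts were paired, edgeR still called 0 of the 8 in either tissue. It then called 12 of 12533 genes (0.0957%) in bone and 0 of 11854 in liver. DESeq2 also called 0 of the 8 in both tissues, where it called 3.64% of all genes in liver and 0.423% in bone. Every positive sample lay above every negative one for 0 of 5 genes of the list in liver (3.91% of all) and 0 of 4 in bone (2.82% of all). Abca1 in liver was at 59.5, 496, 103 and 22.8 CPM in the positive and 22.1, 62.2, 31.8 and 18.2 CPM in the negative samples (log2 difference 2.07 ± 0.80 SE, edgeR adjusted p = 0.32). Positive sample 2, which held 831 of the Kupffer-like cells, stood far above the rest. Fabp4 in liver was at 118, 148, 304.6 and 93.2 against 16.5, 210, 25.6 and 26.8 CPM, overlapping through negative sample 2, and 11 endothelial markers there summed to 356 to 1337 against 66.4 to 267 CPM, all 11 detected in each. The part of these cells in the liver values was not tested.

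In bone, Fabp4 was at 22.6, 170, 4.70 and 2.92 CPM in the positive and 6.96, 12.7, 7.12 and 1.34 CPM in the negative samples. Abca1 was at 33.0, 142, 2.17 and 4.67 against 17.0, 11.8, 7.50 and 5.62 CPM. Positive sample 2 stood highest for both genes and held 320 of the Cd5l and Vcam1 cells. Fabp1 in bone reached at most 2.76 CPM in any sample.

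Within a class, no gene was called between the sorts in the unpaired edgeR tests, and 1 of the list was with a replicate block. The classes were classical and nonclassical monocytes of bone, liver and lung, Kupffer-like cells and border macrophages. In each of these 8 comparisons the unpaired edgeR test called 0 genes of the list and 0 of all genes (0.0%). From 111 to 371 genes had an unadjusted p under 0.05. DESeq2 called 0 of the list as well, and from 0 to 0.219% of all genes in these comparisons. The smallest unadjusted p of the list was for Abca1 in classical monocytes of bone, with a log2 difference of 1.38 ± 0.42 (SE; edgeR adjusted p = 0.99), at 27.6, 10.1 and 6.03 CPM against 9.23, 7.25, 6.34 and 3.74. Nonclassical monocytes of liver had Fabp4 at 237 and 1135 CPM in the positive and 83.6, 86.8, 407 and 8.46 CPM in the negative samples. That difference, 1.82 on the log2 scale, had an edgeR adjusted p of 1.00 without a block and of 0.048 with a block for the replicate number (1.23, with 1.39% of genes called).

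Classical monocytes are found in all 4 tissues, so their negative sort compared lung with the other tissues within 1 class. None of the 6 genes of the list that were tested passed in the unpaired edgeR test, where 0.107% of 9382 genes did. DESeq2 called 0 of the 6 as well, and 1.98% of all genes. With the replicate number as a block, which paired these samples across tissues, Abca1 passed (1.04, edgeR adjusted p = 0.045), where 6.89% of genes did. Of these 9382 genes, 1271 had an unadjusted p under 0.05. Abca1 had the largest estimate of the 6, a log2 of 0.97 ± 0.49 without the block (SE; edgeR adjusted p = 0.42), and Plin2 was at 0.27 ± 0.20.

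The 2 unnamed phagocyte-like clusters were looked at after their values had been seen, so they are described without a test. In the H2-Ab1 and Cd209a cluster of liver, Abca1 was 133, 259 and 83.6 CPM in the positive and 16.1, 50.3, 24.5 and 0 CPM in the negative samples, and Fabp4 was 53.9, 19.2 and 125 against 4.16, 11.1, 9.01 and 0 CPM. All 4 genes of the list above 10 CPM there had every positive sample above every negative one, where 10.0% of genes did. In its lung cells this held for 1 of 5 genes, against 2.63% of all, with Abca1 at 67.4, 278, 51.1 and 122 against 33.6, 43.7, 18.9 and 14.5 CPM. It held for 1 of 4 in bone (16.2% of all) and 0 of 3 in brain (2.25% of all). In the Pf4 and Ppbp cluster it held for 2 of 4 genes in liver (7.83% of all) and 0 of 5 in lung (5.38% of all).

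The IIA experiment on bone used 5′ instead of 3′ libraries and was tested apart. It held no alveolar macrophage class, and Fabp1, Krt79, Car4 and Plet1 were at or near 0, while Plin2 (101 CPM), Abca1 (31.1 CPM), Abcg1 (22.9 CPM) and Fabp4 (10.6 CPM) were counted over all cells. Fabp1 and Krt79 had 0 counts among 120801745 UMIs of 22362 cells, which allows at most 0.0248 CPM, a limit that covers counting error only. Car4 had 8 counts and Plet1 had 87 counts in 33 cells, of which 56 lay in negative injection 2. In bone of the intracardiac experiment, by contrast, Fabp1 had 142, Krt79 417, Car4 174 and Plet1 669 counts among 175633061 UMIs. The experiments differ in injection, library end and multiplexing, which cannot be told apart here.

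In IIA bone, Fabp4 and Abca1 were higher in the positive sort, 2 of the 4 genes tested, against a background of 50.2% of 12625 genes called and 27.0% called higher. Fabp4 was at 7.04, 17.5, 68.7, 47.0, 8.78 and 13.5 CPM in positive injections 1 to 6 and at 3.50, 8.43, 1.25, 7.82, 3.32 and 3.12 CPM in negative ones (log2 difference 2.31 ± 0.61 SE, edgeR adjusted p = 0.0077). Abca1 was at 41.4, 329, 186, 14.4, 12.3 and 15.8 CPM against 9.17, 18.2, 10.1, 14.6, 7.68 and 5.72 CPM (2.99 ± 0.84 SE, adjusted p = 0.010 with edgeR). With the injection number as a block, Fabp4 was at 1.94 (edgeR adjusted p = 0.022) and Abca1 at 1.92 (edgeR adjusted p = 0.037), where 49.1% of genes were called. Both pairs of groups overlapped, and of the 4 genes of the list above 10 CPM 0 had every positive sample above every negative one, against 26.5% of all. Abca1 was highest in positive injections 2 and 3, and Fabp4 in positive injections 3 and 4. Plin2 (0.78, edgeR adjusted p = 0.12) and Abcg1 (-0.04, edgeR adjusted p = 0.95) did not pass. The 14 macrophage markers summed to 448 to 6068 CPM in the positive and 213 to 498 CPM in the negative samples, with 14 and 13 to 14 detected, and their part in the result was not tested.

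Of the further lipid genes 13 rose and 11 fell among 46 tested in IIA bone, where 27.0% of all genes tested rose and 23.2% fell, shares close to those of the list. Their median was 0.21 against 0.08 over all genes. Genes that rose included Cd36 (3.79), Nr1h3 (2.99), Hilpda (2.77), Apoe (2.37), Fabp5 (2.36), Pla2g15 (1.25), Scd2 (1.19), Lipa (1.00) and Acsl3 (0.71). Genes that fell included the sterol sensor Nr1h2 (-0.67), the GM-CSF receptor gene Csf2ra (-0.71), Acsl1 (-0.79), Mylip (-0.85), Abhd5 (-0.87) and the lipase gene Lipe (-0.91). Pparg, which rose in lung, was not among the genes called.

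Within the macrophage class of IIA bone, led by C1q genes, 0 of 4 genes were called by the unpaired edgeR test. It called 0 of all 3279 genes (0.0%), with 410 at an unadjusted p under 0.05. DESeq2 called 0 of the 4 as well, and 2.13% of all genes. Groups overlapped for all 4 genes, where 4.58% of genes had every positive sample above every negative one. Abca1 was at 216, 530, 380, 217, 413 and 545 CPM in the positive sort and at 230, 288 and 20.3 CPM in the 3 negative samples with enough cells, those of injections 2, 3 and 4 (log2 difference 1.10, edgeR adjusted p = 0.46). Fabp4 was at 36.3, 23.0, 83.4, 894, 376 and 252 CPM against 0, 16.9 and 811 CPM. Injection 4 was high in Fabp4 and Abcg1 and low in Plin2 in both sorts: Abcg1 was 469 CPM positive and 486 negative, and Plin2 was 90.3 and 81.1 CPM. Over the other injections Plin2 was 251 to 622 CPM positive and 525 and 672 CPM negative.

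By the likeness of log2(CPM + 1) over the 329 sums of a class in 1 sample, the nearest of 13782 genes to Fabp1 were Vstm2a (Pearson r 0.68), Kcnip4 (0.66) and Htr2c (0.66), and to Fabp4 Cd36 (0.69), Pparg (0.63) and Prickle2 (0.62). For Plin2 they were Ccl6 (0.82), App (0.82) and Cd14 (0.81), for Abcg1 Sqstm1 (0.61), Lnpep (0.60) and Bcl2a1b (0.60), and for Abca1 Sqstm1 (0.64), Mylip (0.64) and Wnk1 (0.63). Plet1 was nearest to Slc7a2 (0.65), Htr2c (0.64) and Cidec (0.63), Krt79 to Marco (0.67), Acaa1b (0.67) and Fabp1 (0.61), and Car4 to Flvcr2 (0.65), Ch25h (0.58) and Lepr (0.54). The sums share libraries and depth, and these values describe likeness only.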

How the data were processed

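Single-cell RNA libraries were deposited by the authors as UMI counts per gene and cell: 32 intracardiac samples from 3′ libraries and 1 pooled IIA bone sample with 12 hashtags from 5′ libraries. Cell Ranger, Seurat and mm10 are named in the submitters' processing notes, and cellranger 6.1.2 and 7.1.0 per the file headers. Whether intronic reads were counted is not given in the sources used here. The 8 genes and all lists were chosen with earlier results of these data known.

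Cells with at least 500 UMIs and 200 genes and at most 15% mitochondrial UMIs were kept, and no doublets were removed. A hashtag was assigned at 10 or more counts and at least 3 times the second. Cells were clustered without the 8 genes (scanpy 1.11.5: 2000 variable genes, 30 components, 15 neighbours, Leiden resolution 1.0) and named from 28 marker lists of 289 genes. A name went to the list with most members among the 100 leading genes, and a cluster stayed unnamed with fewer than 3, or where another list had more among the first 10. Counts were summed per sample, and per class where at least 10 cells were held. The sums were tested with edgeR 4.0.16 (TMM, filterByExpr, quasi-likelihood, Benjamini-Hochberg over all genes tested), which was also tested on simulated data. Alternatives were DESeq2 1.42.0, its size factors, no filter, a replicate block, left-out samples, a mitochondrial limit of 10%, removal of the 5% highest Scrublet scores, a hashtag ratio of 5, 20 cells per class, resolution 0.5, and clustering with the 8 genes.

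Named genes are the 8, for each role of the 49 lipid genes up to 3 called ones by smallest p, and the 3 most alike genes; some genes that this rule names are not reported here. Total UMIs of 497940 to 44874529 per sample set the precision, and limits from counts of 0 (3 counts) cover counting error only. Replicate pairs differed beyond sampling noise, with a chi-square per degree of freedom of at least 15.6 over 48 pairs. The replicate number is shared across sorts in the labels, and numbers were taken to pair samples where every same-numbered pair of sorts deviated together at r over 0.1. This held in bone (0.375 to 0.774), brain (0.290 to 0.664) and liver (0.314 to 0.667), not in lung (-0.208 to 0.594; -0.310 to 0.642 without alveolar macrophages) or IIA bone (0.0960 to 0.623). Negative classical monocytes with the same number deviated together across tissues in 24 of 24 pairs (0.115 to 0.639).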

Additional observations from a re-analysis of the deposited data

Results flagged for a closer look

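Of 130 groups of 4 to 10 samples, 12 (9.23%) had 1 sample far from the others by Dixon's 95% limit. For independent and normally distributed values, chance gives about 1 in 20 such groups. CPM need not be normally distributed and these groups share samples, so the share flagged cannot be set against that rate. Over all kept cells, Fabp4 was 170 CPM in positive bone sample 2 against 2.92 to 22.6 in the other 3, and 210 CPM in negative liver sample 2 against 16.5 to 26.8. Positive liver sample 2 stood apart in Abca1, at 496 CPM against 22.8 to 103, and in Abcg1, at 246 CPM against 37.3 to 68.3. In microglia, Abca1 was 416 CPM in positive brain sample 2 against 307.9 to 315.

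In nonclassical monocytes, Plin2 was 174 CPM in negative bone sample 1 against 251 to 266, and Plet1 was 37.2 CPM in positive lung sample 2 against 0 to 5.99. In the Pf4 and Ppbp cluster of negative lung, Fabp4 was 78.3 CPM in sample 4 against 0 to 10.8, and Plet1 was 42.1 CPM in sample 1 against 0 to 3.60. In the H2-Ab1 and Cd209a cluster, Fabp4 was 42.7 CPM in negative brain sample 1 against 0 to 6.91. In IIA bone, Abca1 in classical monocytes was 32.2 CPM in negative injection 2 against 5.43 to 13.3, and Abcg1 in macrophages was 469 CPM in positive injection 4 against 75.4 to 189.

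The biotin difference of lung was larger than the mean of the other tissues for Fabp1 by 6.27, for Plin2 by 1.46 and for Abcg1 by 2.71 on the log2 scale, by edgeR's test of that difference. The part of the share of alveolar macrophages in these differences was not tested.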

How the results depend on the processing

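Of 729 values of single genes under alternatives, 670 kept direction and side of the threshold, 19 passed it newly, 14 no longer passed and 26, none of them called, changed sign. In lung the count of called genes stayed at 7 with each sample left out, and the replicate block raised it to 8 (Abca1 1.05, edgeR adjusted p = 0.0048; 20.8% of genes called). In brain 1 gene was called under DESeq2 (11.1% of all genes called), without a low-count filter (2.45%) and with the replicate block (6.89%), and 0 to 1 with a sample left out. Abca1 was called without negative brain sample 2 (3.14, edgeR adjusted p = 0.034). In lung without alveolar macrophages, DESeq2 called 3 (5.92% of all genes called) and the replicate block 3 (Abca1, Fabp1 and Plet1; 2.94% of genes called). For lung against the other tissues, DESeq2 called 5 (4.47% of all genes), the replicate block 7 (6.14%), DESeq2 size factors 2 (2.33%), no filter 2 (0.994%), and left-out samples 1 to 3; Krt79 passed without negative lung sample 2 (6.27, edgeR adjusted p = 0.033). With the replicate block, 1 gene was called within a class, Fabp4 in liver nonclassical monocytes, and 1 in negative classical monocytes, Abca1 (1.04, edgeR adjusted p = 0.045; 6.89% of all genes called). In IIA bone, left-out samples gave 2 to 3 calls, the third being Plin2 without positive injection 4 (0.96, edgeR adjusted p = 0.036). The block changed no other call of the 8 genes. The cause of these changes was not tested.

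With samples left out, log2 differences in bone ranged from -1.50 to 0.16 for Fabp1, -0.41 to 0.010 for Plin2, -0.29 to 0.89 for Abcg1, -0.87 to 1.67 for Plet1, -1.48 to 1.71 for Krt79 and -1.04 to 1.39 for Car4. In brain they ranged from -0.74 to 0.36 for Fabp4, -0.60 to 2.27 for Plet1 and -1.63 to 1.06 for Krt79, in liver from -0.14 to 0.23 for Plin2, and in IIA bone from -0.29 to 0.16 for Abcg1. Fabp1 in bone was 0.13 without the highest Scrublet scores, Abcg1 in bone was -0.0029 with the replicate block, and Abcg1 in IIA bone was 0.036 at a hashtag ratio of 5. Thinning to 2000 UMIs moved the share of alveolar macrophages with a UMI to 13.7% for Abca1, 89.5% for Abcg1, 25.9% for Car4, 39.3% for Fabp1, 44.6% for Fabp4, 63.4% for Krt79, 85.8% for Plet1 and 88.4% for Plin2.

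Few cells limit the classes: the alveolar macrophage class held 100 cells in positive lung sample 4, and several macrophage classes held 10 to 25 in a sample. Names rest on marker lists, and injection, library end and multiplexing cannot be told apart between the experiments.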
